A study of Mus musculus with 2 samples.

Results

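The 52 cell cycle genes described here comprised 25 genes of DNA replication (S genes) and 27 genes of mitosis (G2/M genes). They were taken by symbol from the 27998 genes counted in 2 droplet-based single-cell RNA libraries of mouse embryos at E9.5, and all 52 were present. The Ctrl library came from Mesp1Cre;Rosa26-GFPflox/+ embryos and the cKO library from Mesp1Cre;Rosa26-GFPflox/+;Tbx1flox/flox embryos, both on the Swiss Webster strain. Mesp1Cre is active in early mesoderm, so in both genotypes the reporter marks cells whose ancestors expressed Mesp1, and in cKO embryos the same Cre acts on the floxed Tbx1 alleles. The libraries were made from live GFP+ cells of the dissected heart and pharyngeal apparatus, the region where the cardiopharyngeal mesoderm (CPM) gives rise to heart and branchiomeric muscle. Each library held the cells of a pair of embryos and counts as 1 sample, and the cKO embryos had slightly more somites. Embryo, somite stage and genotype therefore cannot be told apart, and with 1 library per genotype no difference between Ctrl and cKO could be tested.

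Dividing cells copy their DNA in S phase and separate the copies in mitosis, after a gap called G2. S genes are switched on by E2F transcription factors as a cell commits to replication, and G2/M genes are switched on later, mainly by the MuvB complex with B-MYB and FOXM1 acting at so-called CHR elements. At this stage of heart development, progenitors of the second heart field divide quickly, and cells that become cardiomyocytes divide more slowly.

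The files held 7418 cells and 132017331 UMIs (unique molecular identifiers, the counted molecules) for Ctrl, and 10281 cells and 162874391 UMIs for cKO. After filtering and removal of presumed doublets, 6591 Ctrl cells (median 16854 UMIs) and 8969 cKO cells (median 14192 UMIs) were kept, and 12 kept barcodes occurred in both libraries. Clustering without cell cycle genes gave 23 clusters, 18 of which were named from marker genes into 13 populations called "-like". These include the multilineage progenitors of the CPM (MLP), branchiomeric muscle progenitors (BrM), somatic mesoderm with anterior second heart field (SoM/aSHF), posterior second heart field (pSHF), cardiomyocytes (CM) and endothelium. The 12 CM markers summed to 39069 CPM (UMIs of the genes per 1000000 UMIs of the same cells) in Ctrl and 43260 CPM in cKO CM-like cells, against 122 and 114 CPM in endothelium-like cells. The erythroid-like cluster held 7 Ctrl and 169 cKO cells, and haemoglobin RNA made up 0.00124% of UMIs in the other Ctrl cells and 0.0199% in the other cKO cells. In the 6 populations named above, the 10 erythroid markers summed to between 1.14 and 21.6 CPM in Ctrl and between 156 and 190 CPM in cKO, and the 6 macrophage markers to at most 2.18 CPM in either library. The targeted gene, Tbx1, stood at 26.5 CPM in the library labelled Ctrl and 44.5 CPM in the library labelled cKO, and in MLP-like cells at 54.2 and 109 CPM. Whether the 3′ end counted here lies in the deleted part of Tbx1 is not given in the sources used here, so these values do not check the labels, and Ctrl and cKO below mean the libraries so labelled.

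The promoters of the members separated by phase. Promoter sequence in the RefSeq table (GRCm38.p6, 250 bases before to 50 after an annotated start) was found for 42 of the 52 members, and a match in any of a gene's promoters was counted. The other members were Mcm4, Gins2, Rfc2, Exo1, Tipin, Ccne2, Tpx2, Aurkb, Dlgap5 and Smc4. The E2F letters searched were TTTCCCGC, TTTCGCGC, TTTGCCGC and TTTGGCGC, the CHR letters were TTTGAA and TTCGAA, and both strands were read. TTCGAA is its own reverse complement, and E2F letters on opposite strands can overlap. The windows below, with 1 match each in capitals, carry the E2F letters of 4 S genes. Among them is Uhrf1, whose level in CPM differed most between the libraries.
Mcm6: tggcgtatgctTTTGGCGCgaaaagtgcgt
Uhrf1: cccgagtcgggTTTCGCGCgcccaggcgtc
Cdc6: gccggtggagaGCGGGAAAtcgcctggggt
Hells: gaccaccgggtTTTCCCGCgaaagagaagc
Their positions were chr1:128359797-128359826 (- strand) for Mcm6, chr17:56304117-56304146 (+) for Uhrf1, chr11:98908002-98908031 (+) for Cdc6 and chr19:38930917-38930946 (+) for Hells. The matches began 110, 185, 138 and 62 bases before a start of these genes. In the Mcm6 window the letters TTTCGCGC also match on the opposite strand, overlapping the end of the capitals and running on into the bases after them.

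The next windows carry the CHR letters of 4 G2/M genes, chosen because Cdc20 and Top2a differed between the libraries in all 12 populations compared and Ube2c and Mki67 are common marks of dividing cells.
Cdc20: agacagttgggtTTTGAAggagccaatgaa
Top2a: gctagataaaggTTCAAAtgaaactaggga
Ube2c: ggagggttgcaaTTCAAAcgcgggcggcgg
Mki67: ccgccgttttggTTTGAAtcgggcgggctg
They lie at chr4:118437344-118437373 (-) for Cdc20, chr11:99024195-99024224 (-) for Top2a, chr2:164769888-164769917 (+) for Ube2c and chr7:135716460-135716489 (-) for Mki67. The Top2a and Ube2c windows hold the reverse complement.

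E2F letters were present in 10 of 19 S promoters (52.6%) and in 1 of 23 G2/M promoters (4.35%, Cdk1), against 2.6% of the promoters of all 27025 genes in the table. CHR letters were present in 2 S promoters (10.5%, Mcm2 and Mcm7) and in 18 G2/M promoters (78.3%), against 21.7% of all genes. The CCAAT letters, which often stand upstream of a CHR, occurred in 13 S promoters (68.4%) and 19 G2/M promoters (82.6%), against 41.1% of all genes. Both CCAAT and CHR letters were found in 17 G2/M promoters (73.9%) and in 8.61% of all genes. A match is a description of letters and not of binding.

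Levels of the S genes over all kept cells spanned from 30.3 CPM to 259 CPM in Ctrl. The count is of 3′ ends, 1 per captured molecule, so levels were not scaled by gene length. Highest in both libraries was Rrm2, the regulated subunit of ribonucleotide reductase, with 259 CPM in Ctrl and 288 CPM in cKO. In Ctrl it was followed by Slbp, the binding protein of histone mRNA, with 221 and 213 CPM, and Pcna, the sliding clamp of the replicative polymerases, with 210 and 158 CPM. Tyms, which makes thymidylate, stood at 159 and 205 CPM and was among the 3 highest in cKO only. The 6 subunits of the MCM helicase, which unwinds DNA at the fork, lay between 73.2 and 152 CPM in Ctrl. There Mcm2 stood at 73.2 CPM, Mcm5 at 96.1 CPM, Mcm3 at 121 CPM, Mcm7 at 147 CPM, Mcm6 at 151 CPM and Mcm4 at 152 CPM. The lowest levels were those of genes used briefly at the G1/S boundary or in small amounts. Chaf1b, a subunit of the histone chaperone CAF-1, stood at 30.3 CPM in Ctrl, Cdc6, the loader of the MCM helicase, at 33.0 CPM, and Ccne2, a cyclin E, at 35.4 CPM. In cKO the lowest were Ccne2 with 28.2 CPM, Cdc6 with 34.5 CPM and Exo1, an exonuclease of DNA repair, with 37.7 CPM.

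The G2/M genes were on the whole the more abundant group, with sums of 5007 CPM in Ctrl and 4785 CPM in cKO against 2891 and 2757 CPM for the S genes. Cks2, the small partner protein of cyclin-dependent kinases, was the highest member with 582 and 535 CPM. In Ctrl, Top2a, the topoisomerase that untangles sister chromatids, came next with 504 and 383 CPM, and Cenpf, a kinetochore protein, with 382 and 358 CPM. Ube2c, which works with the anaphase-promoting complex (APC/C) to destroy mitotic proteins, stood at 332 and 361 CPM. Cenpa, the centromeric histone, stood at 351 and 314 CPM. The kinase Cdk1, the engine of mitosis, stood at 235 and 260 CPM, well above its partner cyclin Ccnb2 with 75.4 and 87.0 CPM. Mki67, the gene of the proliferation marker Ki-67, stood at 208 and 181 CPM, and Aurkb, the kinase of the chromosomal passenger complex, at 103 and 107 CPM. The lowest members were the checkpoint kinase Ttk with 34.0 and 29.4 CPM, and the cytokinesis genes Anln with 44.5 and 37.8 CPM and, in Ctrl, Kif23 with 48.2 CPM (47.1 CPM in cKO). In cKO the place of Kif23 was taken by Ect2, another cytokinesis gene, with 41.9 CPM (56.6 CPM in Ctrl).

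**Figure D1:**
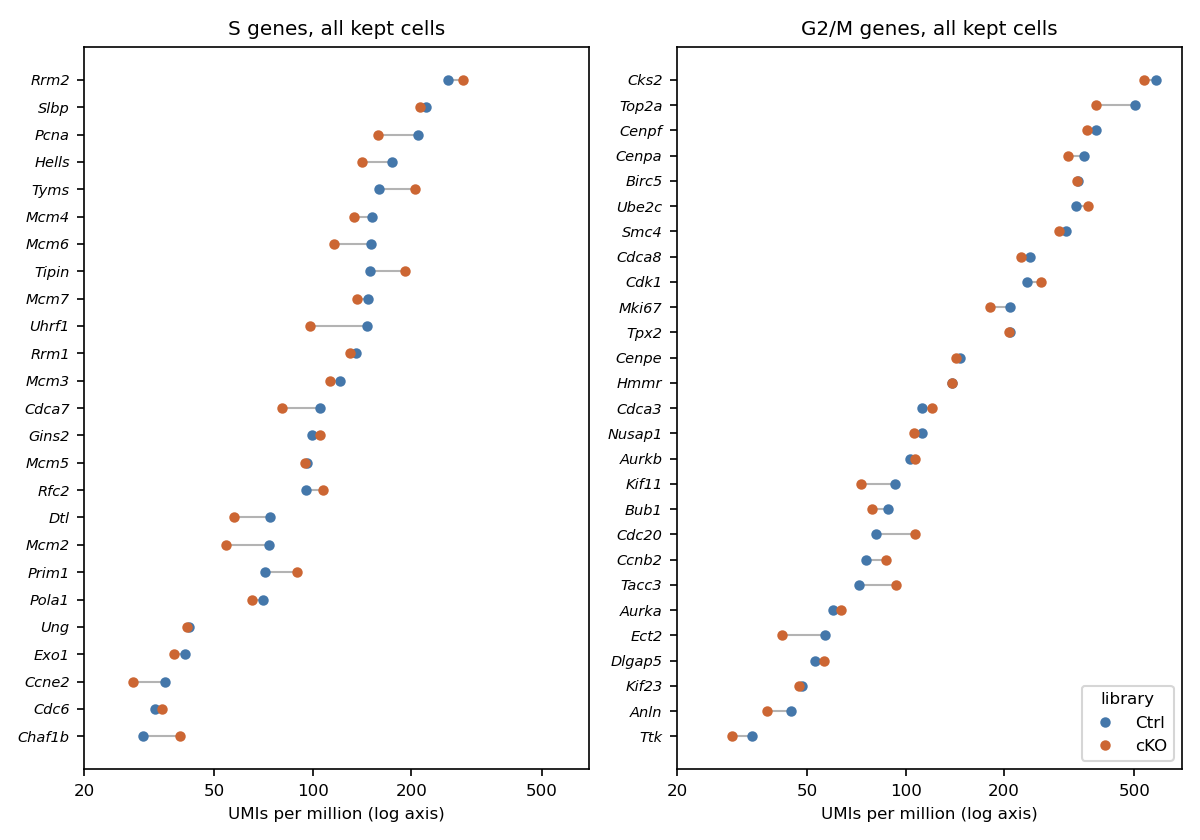
Level of each of the 25 S genes (left) and 27 G2/M genes (right) over all kept cells, in CPM on a log axis. Blue points are the Ctrl library and orange points the cKO library, joined by a grey line, with genes ordered by the Ctrl level. Uhrf1, Pcna, Mcm2, Top2a and Ect2 have the longer lines to the left, Tyms, Tipin, Cdc20 and Tacc3 to the right.

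Within single cells, thinned to 5000 UMIs each so that depth was equal, the members of a phase went together and the phases went apart. Over 6520 Ctrl cells the S sum and the G2/M sum of a cell were negatively correlated (Pearson r = -0.36), and over 8870 cKO cells likewise (r = -0.33). These correlations describe cells of 1 library each and share its depth. Among G2/M genes, Cenpf (r = 0.67), Ube2c (0.66) and Cks2 (0.62) followed the sum of the other G2/M genes most closely in Ctrl, and Ccnb2 (0.14) and Ttk (0.19) least. Ctrl cells at or above the upper quartile of the sum of the other G2/M genes were set against those at or below the lower quartile. Nusap1, which bundles spindle microtubules, was 23.4-fold higher in the upper cells, Aurka, the centrosomal kinase, 21.9-fold and Ube2c 15.3-fold. Ccnb2 was higher by 1.79-fold. These folds leave the gene's own UMIs out of the ranking and are no test.

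The S genes varied less sharply. Rrm2 (r = 0.35 with the other S genes in Ctrl), Pcna (0.33), Uhrf1 (0.30) and Hells (0.30) were the closest followers, and Rfc2 (0.06), Pola1 (0.10) and Tyms (0.11) the loosest. By fold between cells beyond the same quartiles of the sum of the other S genes, the 3 highest were Cdc6, Ung and Ccne2. Cdc6 stood at 6.62-fold, Ung, the uracil glycosylase, at 6.09-fold and Ccne2 at 5.81-fold, although all of them had low levels. Rfc2, a subunit of the clamp loader, was higher by 1.23-fold. Tyms had an r of 0.03 with the G2/M genes in Ctrl, next to 0.11 with the other S genes. Cells rich in G2/M UMIs also held more RNA. Ctrl cells at or above the upper quartile of the thinned G2/M sum had a median of 20934 UMIs before thinning and those at or below the lower quartile 14235, and in cKO the medians were 17113 and 12413.5. Cells removed as presumed doublets had a median of 33230 UMIs in Ctrl and 28549 in cKO, and after thinning a median G2/M sum of 24 and 22 against 20 and 19 in kept cells. Whether single cells close to division were among them was not tested.

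**Figure D2:**
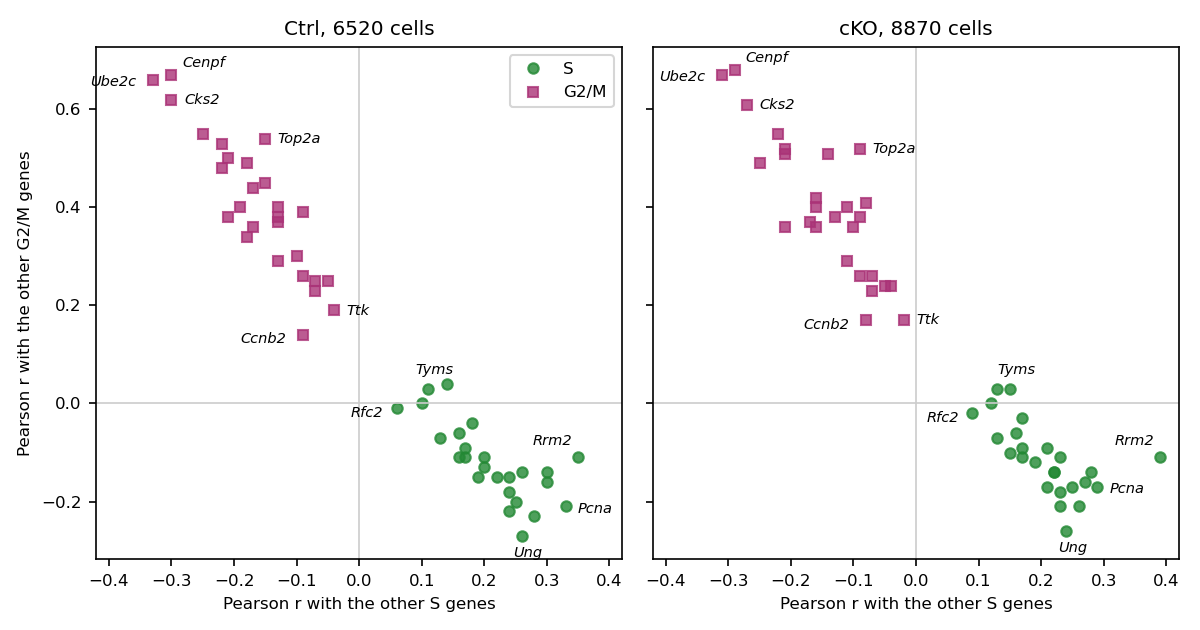
Pearson correlation across cells, thinned to 5000 UMIs, of each member with the summed UMIs of the other S genes (x axis) and of the other G2/M genes (y axis), in Ctrl (left, 6520 cells) and cKO (right, 8870 cells). Green circles are S genes and magenta squares G2/M genes. All G2/M genes lie left of 0 and all S genes right of 0 in both libraries, with Cenpf, Ube2c and Cks2 at the upper end of the G2/M genes and Ccnb2 and Ttk at their lower end.

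Most cells carried members of both phases. In thinned cells the median S sum was 14 UMIs in Ctrl and 13 in cKO, and the median G2/M sum was 20 and 19. At least 5 S UMIs were found in 95% of Ctrl and 94.3% of cKO cells, and at least 5 G2/M UMIs in 91.4% and 91.6% (without thinning 99.2% and 98.9% for S and 97.1% and 96.5% for G2/M). At least 20 G2/M UMIs were found in 50.3% of Ctrl cells (Clopper-Pearson 95% interval 49.1% to 51.5%) and 47.8% of cKO cells (46.8% to 48.9%). After thinning, 61 Ctrl and 65 cKO cells had no G2/M UMI at all. By gene, Cks2 was detected in 80.8% and 79.0% of thinned cells (94.5% and 92.2% unthinned), Top2a in 71.2% and 65.9%, Uhrf1 in 48.8% and 36.2%, Tipin, which steadies stalled forks, in 50.8% and 60.1%, and Cdc6 in 14.5% and 15.7%. All intervals here and below cover counting error only, and since the UMIs of a cell are not independent they are too narrow. The share that free RNA alone would give was not measured, and no cell was called cycling from these shares.

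Between populations, CM-like cells stood apart. Their S sum was 1415 CPM in Ctrl and 1429 CPM in cKO, against 2955 and 2838 CPM in the other kept cells of the same library. The log2 ratio was -1.06 (interval -1.10 to -1.03) in Ctrl and -0.99 (-1.02 to -0.96) in cKO. The G2/M sum was lower by less, with 3456 against 5074 CPM in Ctrl (log2 -0.55, -0.58 to -0.53) and 3411 against 4869 CPM in cKO (-0.51, -0.53 to -0.50). In both libraries 21 of 25 S genes and 10 of 27 G2/M genes were at least 1.5-fold lower in CM-like cells than in other cells, a share reached by 17.6% of all measured genes. The other populations with at least 50 cells in both libraries had at most 2 such members of either phase.

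The S genes furthest down were Cdca7, which recruits the remodeller HELLS to chromatin, with 35.3 CPM in CM-like and 108 CPM in other Ctrl cells (log2 -1.61), Cdc6 with 11.8 against 33.9 CPM (-1.52), Uhrf1, which carries DNA methylation through replication, with 53.9 against 150 CPM (-1.48), and Chaf1b with 11.2 against 31.1 CPM (-1.47). In cKO their ratios were -1.46, -1.33, -1.30 and -1.17. Of the MCM genes, Mcm5 (-1.26 in Ctrl, -1.0 in cKO) and Mcm7 (-1.17, -0.91) were further down than Mcm2 (-0.61, -0.46). The 4 S genes not 1.5-fold lower in both libraries were Mcm2, Ung, Rfc2 and Ccne2, and Ccne2 was nearly level (30.8 against 35.6 CPM, log2 -0.21, -0.45 to 0.03).

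The G2/M genes split within CM-like cells. The kinases Ttk (13.3 against 34.9 CPM in Ctrl, log2 -1.39) and Aurkb (42.7 against 105 CPM, -1.31) were as far down as the S genes, followed by the checkpoint kinase Bub1 (-1.18), Mki67 (-1.13) and the kinetochore motor Cenpe (-1.01). In contrast, Ube2c (304 against 333 CPM, -0.13), Cenpa (315 against 353 CPM, -0.16), Kif23 (50.4 against 48.1 CPM, 0.07) and Anln (46.4 against 44.5 CPM, 0.06) were close to the level of the other cells. In cKO, Ube2c stood at -0.03, Cenpa at -0.01, Kif23 at -0.05 and Anln at 0.00. In Ctrl the same was true of Ccnb2 (-0.18), but less so of Cdk1 (-0.44) and not of Top2a (287 against 514 CPM, -0.84).

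The spread over cells gave the same picture. After thinning, CM-like cells had a median of 5 S UMIs in both libraries, against 14 and 13 over all kept cells. Their G2/M sum was wide: the lower quartile was 2 UMIs in Ctrl and 3 in cKO, the median 7 and 11, and the upper quartile 24 in both. The 90th percentile was 43 and 37.2 UMIs, close to 45.1 and 44 over all kept cells. At least 5 G2/M UMIs were found in 60.0% of 270 Ctrl CM-like cells (53.9% to 65.9%) and 66.8% of 479 cKO cells (62.4% to 71.0%), intervals that overlap. At least 20 were found in 30.7% (25.3% to 36.6%) and 33.4% (29.2% to 37.8%), and at least 20 S UMIs in 4.07% and 3.34%. Cdc6 was detected in 2.59% of thinned Ctrl CM-like cells (1.05% to 5.27%, 13.6% unthinned) and 5.22% of cKO cells (16.2% unthinned). The opposition of S and G2/M sums over all cells was not seen within CM-like cells (r = 0.05 in Ctrl and 0.01 in cKO). It was weak in endothelium-like cells (-0.19 and -0.09) and in cKO erythroid-like cells (-0.09), and in the other named populations r lay between -0.59 and -0.26.

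CM-like cells came from 3 clusters. The largest, led by Myh6 and Actc1, held 136 Ctrl and 289 cKO cells and had the lowest S sums, 1051 and 1135 CPM. The cluster led by Myh7 and Tdgf1 had 1821 and 2038 CPM, and the cluster led by Myl2 and Myh7 had 1682 and 1613 CPM. All 3 were below every other named population with at least 50 cells in Ctrl. Erythroid-like cells, counted in cKO only, had an S sum of 1712 CPM (log2 -0.71 against other cells) and a G2/M sum of 3257 CPM (-0.57). With haemoglobin, mitochondrial and ribosomal protein genes left out of the totals these became 0.07 and 0.20, while the CM-like ratios became -1.12 and -1.10 for S and -0.62 in both libraries for G2/M. With all UMIs again in the totals, Mki67 was higher in the erythroid-like cells (306 against 177 CPM, log2 0.79) and Cdca7 lower (19.7 against 82.7 CPM, -2.07). For single genes the reduced totals are not given here.

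**Figure D3:**
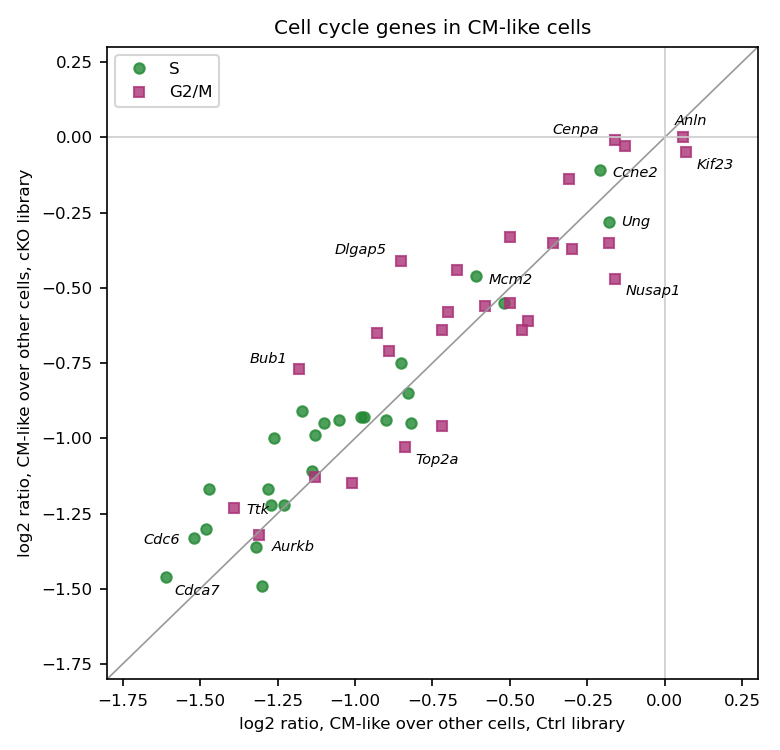
Log2 ratio of CM-like cells over the other kept cells for each member, in Ctrl (x axis) and cKO (y axis), with S genes as green circles and G2/M genes as magenta squares. The diagonal marks equal ratios. Nearly all points lie below 0 in both libraries, with Cdca7 and Cdc6 at the lower end and Cenpa, Anln and Kif23 near 0.

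The other populations lay closer together. S sums were highest in foregut splanchnic-like cells (3420 CPM in Ctrl and 3232 CPM in cKO), followed in Ctrl by pSHF-like cells (3191 CPM), and the intervals of both stood clear of their neighbours in this order. Septum transversum-like (3058 CPM), sclerotome-like (3013 CPM) and MLP-like cells (3001 CPM) came next, with intervals that overlapped. Below the level of all kept cells were SoM/aSHF-like (2709 CPM), epicardium-like (2629 CPM), sinus venosus-like (2470 CPM) and endothelium-like cells (2416 CPM). G2/M sums in Ctrl were highest in dermomyotome-like cells (5639 CPM) and lowest, next to CM-like cells, in epicardium-like (4106 CPM) and endothelium-like cells (4277 CPM). In endothelium-like cells, Ect2, an activator of cytokinesis, was lower (30.9 against 58.1 CPM in Ctrl, log2 -0.91) and Cdk1 higher (324 against 230 CPM, 0.49) than in other cells.

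**Figure D4:**
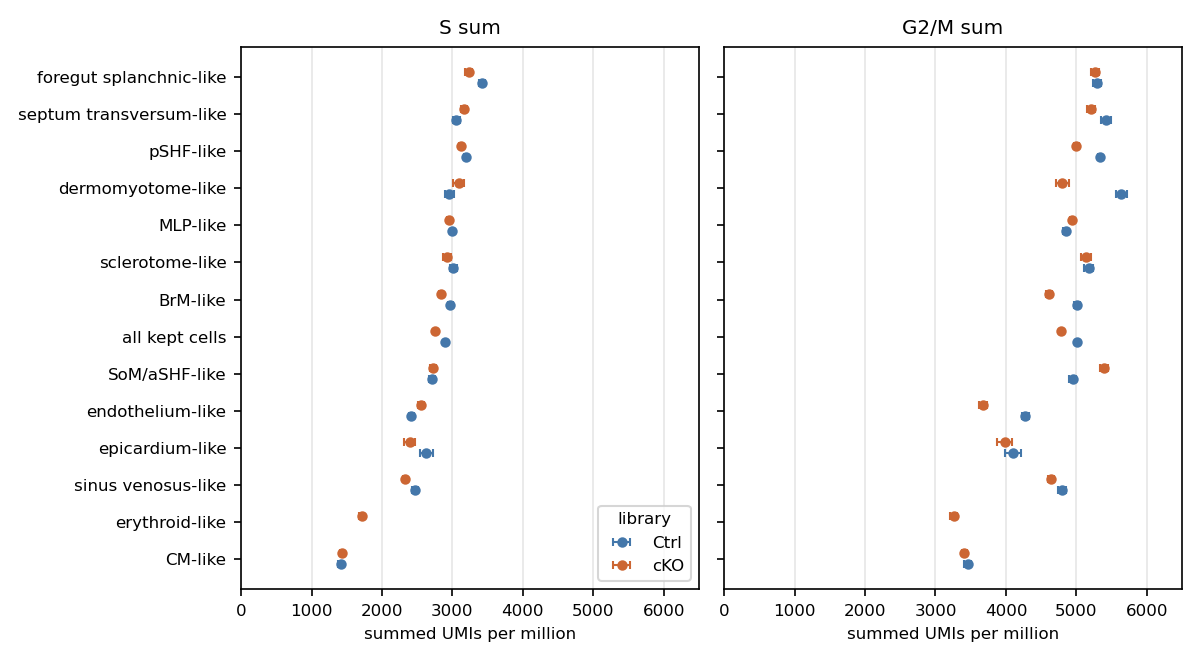
Summed level of the 25 S genes (left) and the 27 G2/M genes (right) in each population and over all kept cells, in CPM, for Ctrl (blue) and cKO (orange). Bars are exact Poisson 95% intervals, which cover counting error only, and groups under 50 cells are not drawn. CM-like cells are lowest in the S sum, and the libraries are furthest apart in the G2/M sum of dermomyotome-like and endothelium-like cells.

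Between the libraries, the sums over all kept cells were close to equal and their direction depended on the scaling. The S sum was 2891 CPM (2881 to 2901) in Ctrl and 2757 CPM (2748 to 2765) in cKO, a log2 ratio of -0.07 (-0.08 to -0.06). The G2/M sum was 5007 (4994 to 5020) and 4785 CPM (4773 to 4796), a log2 ratio of -0.07 (-0.07 to -0.06). The median of all 18750 genes with UMIs in both libraries was itself shifted by -0.18 on the log2 scale, and under median-of-ratios scaling, which sets that median to 0, both sums were higher in cKO by 0.11. Relative to the median gene the members therefore stood slightly up, and relative to all UMIs slightly down. The mix of populations differed too. CM-like cells made up 4.14% of Ctrl and 5.37% of cKO cells, erythroid-like cells 0.106% and 1.88%, and endothelium-like cells 5.57% and 4.21%. The part of this mix in the ratios was not tested.

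Single members differed by more than the sums. Members and genes were counted as higher or lower past a log2 ratio of 0.32 in either direction. Higher in cKO by this count were 5 of 52 members, Tyms, Chaf1b, Tipin, Cdc20 and Tacc3, against 6.62% of all 7548 measured genes. Lower by this count were 10 of 52, Mcm2, Mcm6, Pcna, Uhrf1, Cdca7, Dtl, Ccne2, Top2a, Kif11 and Ect2, against 28.2% of measured genes. The share of higher members, 9.62%, was thus near the background and that of lower members, 19.2%, below it. Under median-of-ratios scaling the split was 10 higher, against 19.5% of measured genes, and 1 lower, against 13.5%. Uhrf1 had the lowest ratio on either scale. None reached 1.5-fold in either direction.

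The largest differences in CPM were as follows. Uhrf1 (RefSeq chr17:56303337-56323486, GRCm38.p6) stood at 146 CPM (144 to 149) in Ctrl and 98.2 CPM (96.5 to 99.9) in cKO, a log2 ratio of -0.58 (-0.61 to -0.54), or 1.49-fold lower. Mcm2 stood at 73.2 and 54.4 CPM (-0.43, -0.47 to -0.38) and Ect2 at 56.6 and 41.9 CPM (-0.43). In the other direction, Cdc20 (chr4:118432901-118437343), an activator of the APC/C, stood at 81.2 and 107 CPM (0.40, 0.36 to 0.44). Tacc3, which steadies spindle microtubules, stood at 72.0 and 93.6 CPM (0.38, 0.34 to 0.42), and Tyms and Chaf1b were both at 0.37.

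Genes that act together differed by unlike amounts. Within the MCM helicase, whose subunits assemble in equal numbers, Mcm2 (-0.43) and Mcm6 (-0.38) were lower, while Mcm4 (-0.18), Mcm7 (-0.11), Mcm3 (-0.10) and Mcm5 (-0.02) were closer to level. The sum of the 6 was 740 CPM in Ctrl and 648 CPM in cKO (log2 -0.19). Of the genes that copy chromatin, Uhrf1, Cdca7 (-0.38) and Hells (-0.31) were lower, Slbp was nearly level (-0.06) and Chaf1b higher. The clamp Pcna (-0.41) and the primase subunit Prim1 (0.32) went opposite ways. The nucleotide enzymes Tyms and Rrm2 (0.15) were higher and Rrm1, the other subunit of the same reductase, was at -0.06. Among G2/M genes the 3 members of chromosome structure, Top2a (-0.40), Mki67 (-0.20) and Smc4 (-0.08), summed to 1022 CPM in Ctrl and 858 CPM in cKO (-0.25). The 3 members tied to the APC/C and mitotic exit, Cdc20, Ube2c (0.12) and Cdca3 (0.10), summed to 525 and 587 CPM (0.16). Cdk1 (0.15) and Ccnb2 (0.21) were slightly higher, Cenpa (-0.16) slightly lower and Aurkb (0.06) nearly level. After median-of-ratios scaling all of these ratios are higher by 0.18, so that Mcm3, Mcm4, Mcm5, Mcm7, Rrm1, Slbp, Smc4 and Cenpa change sign or come to 0.

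Several of these differences had the same sign in all 12 populations with at least 50 cells per library. Higher in cKO in all 12 were Tyms, Rfc2, Chaf1b, Tipin, Prim1, Cdc20 and Tacc3, 7 of 52 against 10.6% of measured genes, and these 7 stayed higher in all 12 under median-of-ratios scaling. Lower in all 12 were Mcm2, Mcm6, Pcna, Uhrf1, Cdca7, Hells, Top2a and Kif11, 8 of 52 against 21.9% of measured genes. Under median-of-ratios scaling Mcm2, Mcm6, Uhrf1 and Top2a were still lower in all 12, 4 of 52 against 13.3% of measured genes. Uhrf1 ranged from -0.66 to -0.27 and Tyms from 0.30 to 0.54. The 12 populations come from the same 2 libraries and are no replicates of the genotype.

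**Figure D5:**
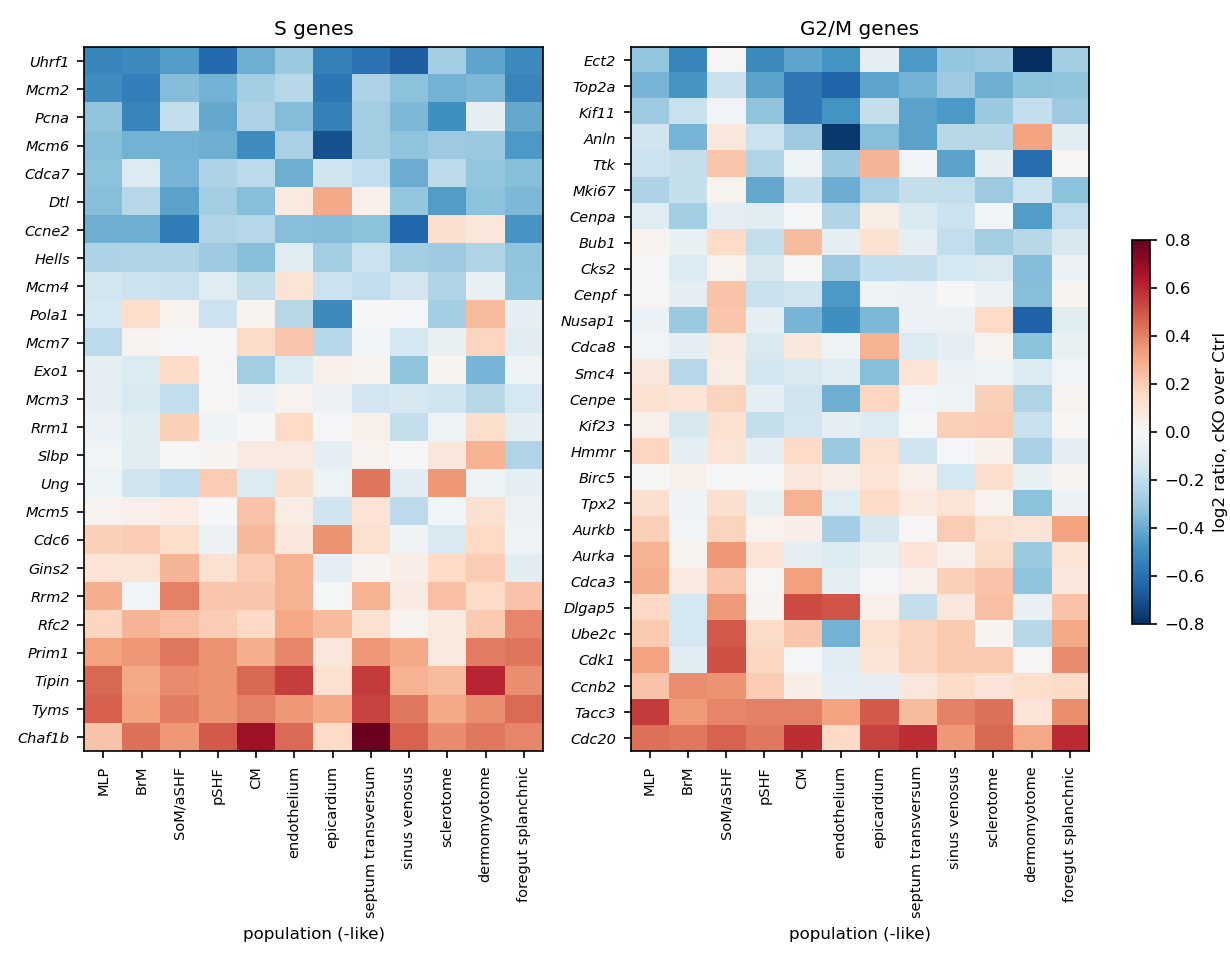
Log2 ratio of cKO over Ctrl for each S gene (left) and G2/M gene (right), in the 12 populations with at least 50 cells in each library. Red is higher and blue lower in cKO, on a scale from -0.8 to 0.8, with genes ordered by their ratio over all kept cells. Rows from Uhrf1 to Mcm6 and the row of Top2a are blue throughout, and the rows of Tyms, Tipin, Chaf1b, Tacc3 and Cdc20 are red throughout.

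Other measured properties moved with these ratios. Over 7209 measured genes with a RefSeq span (start to end of the gene, introns included), the log2 ratio was lower the longer the span (Spearman rho -0.45, across genes, which are no replicates). In 5 equal groups of genes by span, the median ratio was 0.06 in the shortest group and -0.35 in the longest. Members had a rho of -0.29, and their medians in the first 4 of these groups were 0.06, -0.02, -0.08 and -0.22. After each gene was centred on genes of like span, 5 members were higher by this count, the same 5 genes as before (10.8% of genes), and 5 were lower, Mcm2, Pcna, Uhrf1, Cdca7 and Ccne2 (13.9% of genes). Mitochondrial RNA took 2.97% of UMIs in Ctrl and 2.36% in cKO, and ribosomal protein RNA 21.9% and 23.3%. Cells with Xist and no Y-linked UMIs made up 51.1% of Ctrl and 56.7% of cKO cells. Cells with Y-linked UMIs and no Xist made up 40.2% and 31.0%, so the libraries mixed sexes in different proportions. In both kinds of cell 47 of 52 members had the same sign. Both kinds come from the same 2 libraries, and the share of all measured genes with the same sign was not computed. The count is therefore not read as particular to the members. The part of gene span, mitochondrial RNA, ribosomal protein RNA and sex in the differences was not tested.

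In the MLP-like, BrM-like and pSHF-like populations of the CPM, the sums differed by at most 0.12 on the log2 scale in CPM, and 4 of these 6 sums changed sign under median-of-ratios scaling. In MLP-like cells the S sum was 3001 CPM in Ctrl and 2948 CPM in cKO (log2 -0.03) and the G2/M sum 4852 and 4938 CPM (0.03), or 0.16 and 0.21 under that scaling. The S ratio in CPM was 0.05 in one of the 2 MLP-like clusters and -0.08 in the other, whose shares of these cells were similar in both libraries. In this population 5 members were higher past log2 0.32 (9.2% of measured genes) and 7 lower (27.4%), and under median-of-ratios scaling 17 (24.2%) and 1 (14.5%). Tacc3 stood at 64.8 and 95.4 CPM (0.56), Tyms at 156 and 218 CPM (0.48) and Tipin at 147 and 202 CPM (0.46), while Uhrf1 stood at 157 and 110 CPM (-0.52), Mcm2 at 77.0 and 54.6 CPM (-0.50) and Ccne2 at 33.0 and 25.3 CPM (-0.39). The marker lists moved too in MLP-like cells: the 10 MLP markers summed to 605 CPM in Ctrl and 483 CPM in cKO and the 8 SoM/aSHF markers to 248 and 130 CPM. The 9 pSHF markers summed to 203 and 124 CPM, the 7 BrM markers to 171 and 104 CPM and the 5 sinus venosus markers to 40.4 and 12.4 CPM. The 8 neural crest markers went from 47.2 to 20.1 CPM, the 6 dermomyotome markers from 88.4 to 182 CPM and the 7 epithelium markers from 34.0 to 62.8 CPM. The part of these lists in the ratios was not tested. BrM-like cells, where Tbx1 was at 121 CPM in Ctrl and 93 CPM in cKO, had S sums of 2973 and 2838 CPM (-0.07) and G2/M sums of 5013 and 4617 CPM (-0.12), or 0.05 and -0.01 under that scaling. Here 5 members were higher (11.0% of genes) and 8 lower (28.3%), or 8 (17.8%) and 5 (20.2%) under median-of-ratios scaling. Chaf1b (0.44), Cdc20 (0.42) and Ccnb2 (0.37) were highest, and Mcm2 (-0.55), Pcna (-0.53) and Ect2 (-0.52) lowest. The 7 BrM markers that named these cells summed to 1027 CPM in Ctrl and 508 CPM in cKO, and the 10 MLP markers to 532 and 204 CPM. The 8 SoM/aSHF markers summed to 119 and 34.2 CPM and the 4 septum transversum markers to 64.8 and 25.2 CPM. The 6 cranial mesenchyme markers summed to 27.9 and 86.2 CPM and the 5 sclerotome markers to 19.4 and 43.0 CPM. The part of these differences in the ratios was not tested.

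In pSHF-like cells the S sum was 3191 and 3124 CPM (-0.03) and the G2/M sum 5332 and 5000 CPM (-0.09), or 0.10 and 0.04 under median-of-ratios scaling. Of the members, 6 were higher (7.41% of genes) and 7 lower (28.3%), or 10 (17.5%) and 2 (17.3%) under that scaling. Chaf1b (0.49), Cdc20 (0.42) and Tacc3 (0.40) were highest and Uhrf1 (166 and 108 CPM, -0.62), Ect2 (-0.51) and Top2a (-0.43) lowest. In the same pSHF-like cells the 12 CM markers summed to 217 CPM in Ctrl and 488 CPM in cKO and the 7 epithelium markers to 105 and 168 CPM, and their part in the ratios was not tested. CM-like cells, the population with the lowest S sum, had sums whose ratio in CPM could not be told from 0 within counting error (S 0.01, -0.03 to 0.06, and G2/M -0.02, -0.05 to 0.01). Under median-of-ratios scaling the same ratios were 0.12 and 0.08. The mix of clusters differed between the libraries: the cluster led by Myh6 and Actc1, with the lowest S sum, held 49.8% of 273 Ctrl and 60.0% of 482 cKO CM-like cells. Within the clusters the S ratio in CPM was 0.11 in that one, 0.16 in the one led by Myh7 and Tdgf1 and -0.06 in the one led by Myl2 and Myh7, so the ratio of the whole population does not describe its clusters. The G2/M ratios were 0.04, 0.06 and -0.14 in the same order. In them 7 members were higher (10.9% of genes) and 8 lower (25.1%), or 12 (18.5%) and 3 (17.8%) under that scaling. Chaf1b (11.2 and 18.0 CPM, 0.68), Cdc20 (44.5 and 66.9 CPM, 0.59) and the spindle gene Dlgap5 (0.52) were highest, and Top2a (287 and 194 CPM, -0.57), Kif11 (-0.57) and Mcm6 (-0.50) lowest. In CM-like cells the 7 epithelium markers summed to 277 CPM in Ctrl and 452 CPM in cKO, the 10 MLP markers to 402 and 275 CPM, the 8 SoM/aSHF markers to 333 and 208 CPM and the 7 BrM markers to 128 and 65.1 CPM. Their part in the ratios was not tested.

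SoM/aSHF-like and endothelium-like cells went opposite ways in the G2/M sum on both scales. In SoM/aSHF-like cells it was 4947 CPM (4895 to 4999) in Ctrl and 5394 CPM (5336 to 5452) in cKO (log2 0.12, 0.10 to 0.15), and 23 of 27 G2/M genes were higher by any size, against 40.4% of measured genes, while the S sum was level (2709 and 2728 CPM, 0.01). Cdk1 stood at 211 CPM in Ctrl and 300 CPM in cKO (0.51, 0.41 to 0.61), Ube2c at 269 and 378 CPM (0.49) and Cdc20 at 78.5 and 109 CPM (0.47). Top2a, at 478 and 421 CPM (-0.18), did not follow them. The lowest ratios were those of the S genes Ccne2 (-0.56), Uhrf1 (-0.45) and Dtl, which marks Cdt1 for destruction (-0.43). Of all members, 12 were higher past log2 0.32 (9.88% of genes), 7 of them G2/M genes, and 6 were lower (25.8%), all S genes, or 18 (17.2%) and 3 (17.2%) under median-of-ratios scaling. The G2/M ratio depended on which cells were clustered into the population: it was 0.03 without integration, 0.04 in a first clustering pass and -0.05 when cell cycle genes were allowed as clustering features. The 8 SoM/aSHF markers that named these cells summed to 672 CPM in Ctrl and 484 CPM in cKO, the 6 epicardium markers to 107 and 60.0 CPM, the 5 sinus venosus markers to 74.1 and 35.7 CPM and the 7 epithelium markers to 307 and 489 CPM. Their part in the ratio was not tested.

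In endothelium-like cells the G2/M sum was 4277 CPM (4227 to 4328) in Ctrl and 3673 CPM (3622 to 3725) in cKO (log2 -0.22, -0.25 to -0.19), 23 of 27 G2/M genes were lower by any size, against 60.4% of measured genes, and the S sum was slightly higher (2416 and 2553 CPM, 0.08). The G2/M ratio stayed negative under median-of-ratios scaling (-0.10). Anln, which scaffolds the cleavage furrow, stood at 50 CPM (44.7 to 55.8) in Ctrl and 29.3 CPM (24.9 to 34.2) in cKO (-0.77). Top2a stood at 363 and 233 CPM (-0.64), Nusap1 at 82.5 and 58.7 CPM (-0.49), Cenpf at 238 and 173 CPM (-0.46) and Mki67 at 168 and 127 CPM (-0.40), but Cdk1 at 324 and 304 CPM (-0.09). Tipin (140 and 205 CPM, 0.55), Dlgap5 (35.6 and 50.3 CPM, 0.50) and Chaf1b (0.45) were highest. Here 12 members were lower past log2 0.32 (28.0% of genes), 9 of them G2/M genes, and 5 higher (8.67%), or 6 lower (18.6%) and 10 higher (16.9%) under median-of-ratios scaling. By role, the log2 ratio of the summed UMIs was -0.43 for cytokinesis, -0.37 for chromosome structure and -0.31 for the kinetochore group. It was 0.28 for nucleotide supply and 0.35 for repair and the fork checkpoint. The other roles lay between -0.21 (APC/C and mitotic exit) and 0.08 (origin loading and firing). Both endothelium-like clusters were lower in G2/M, the one led by Cldn5 and Emcn with 4444 and 4065 CPM and the one led by Klf2 and Gngt2 with 4014 and 2985 CPM. After thinning, 42.1% of 361 Ctrl cells (37.0% to 47.4%) and 35.2% of 366 cKO cells (30.4% to 40.4%) held at least 20 G2/M UMIs, intervals that overlap. The 10 erythroid markers summed to 21.6 CPM in Ctrl and 190 CPM in cKO endothelium-like cells, with Gata1 at 0 in both. The 5 neuron markers summed to 19.6 and 38.8 CPM, the 5 sclerotome markers to 73.8 and 44.4 CPM and the 6 cranial mesenchyme markers to 147 and 90.6 CPM. The part of these lists in the ratio was not tested. In dermomyotome-like cells, with 145 Ctrl and 118 cKO cells, the G2/M ratio was similar (5639 and 4798 CPM, -0.23).

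The genes that regulate the cycle upstream of the members were read from 6 lists of 65 genes over all kept cells, where 6.62% of measured genes were higher and 28.2% lower past log2 0.32 in CPM. Under median-of-ratios scaling, which adds 0.18 to each ratio, these shares were 19.5% and 13.5%. Of 9 D, E, A and B cyclins and their kinases, Ccnd3 (90.1 and 121 CPM, log2 0.43) and Cdk2 (11.5 and 15.7 CPM, 0.45) were higher in cKO past log2 0.32 and Ccnd2 (429 and 271 CPM, -0.67) and Cdk6 (35.2 and 20.9 CPM, -0.75) lower. Ccnd1 stood at 144 and 118 CPM (-0.29) and Cdk4 at 737 and 919 CPM (just short of it). Under the scaling Cdk4 (0.50) and Ccne1 (0.42) also passed as higher, which made 4 of 9 higher and 2 lower. Of 7 inhibitors of these kinases 3 were measured, Cdkn1c (510 and 615 CPM, 0.27) having by far the highest level. None passed in CPM, but Cdkn1c (0.45) and Cdkn2d (0.34) did under the scaling. Cdkn1a, Cdkn2a, Cdkn2b and Cdkn2c had at most 3.0 CPM in either library. Of 13 genes of the E2F and RB families 10 were measured. In CPM none was higher by this count, and E2f3 (35.9 and 22.8 CPM, -0.65), Rbl1 (15.3 and 9.57 CPM, -0.68), E2f7 (-0.40) and E2f6 (-0.36) were lower, 4 of 10 against 28.2% of measured genes. Tfdp1 (0.24), E2f4 (0.09) and E2f1 (12.6 CPM in both, 0.00) had the highest ratios. Under the scaling only E2f3 (-0.47) and Rbl1 (-0.50) of these 10 were lower and Tfdp1 (0.42) was higher. The median ratio of the 10 was -0.30 in CPM, against -0.11 over all measured genes.

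Of 8 factors that drive mitotic genes 7 were measured. Foxm1 (19.7 and 12.9 CPM, -0.61), Lin54, the subunit of MuvB that reads the CHR (19.4 and 13.1 CPM, -0.57), and Mycn (80.1 and 57.7 CPM, -0.47) were lower. Lin37 (10.5 and 17.0 CPM, 0.69) was higher, Myc was at 0.02 and Mybl2 at -0.15. Among 14 further replication genes Rpa2 (0.38) was higher and Mcm10 (-0.45) and Cdt1 (-0.39) were lower. Among 13 further mitosis genes that were measured, Cdc25c (0.37) was higher and Bub1b (-0.53), Ncapd2 (-0.36) and Ccnf (-0.35) lower. These ratios are in CPM, and the lower calls of Mycn (-0.29 under the scaling), Mcm10 (-0.27), Cdt1 (-0.21), Ncapd2 (-0.18) and Ccnf (-0.17) ended under median-of-ratios scaling. Foxm1 (-0.43), Lin54 (-0.39) and Bub1b (-0.35) still passed as lower, and Plk1 (0.43) and Fzr1 (0.34) passed as higher.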

How the data were processed

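Per the labels and the study's methods, reads of both 10x libraries were aligned and counted by the authors with Cell Ranger 3.1.0 on mm10 (GRCm38), as the submitters' processing notes give it, and the deposited matrices hold UMI counts per gene and cell with no normalization. Here cells with at least 1000 genes and at most 10% mitochondrial UMIs were kept, and the cells with the highest Scrublet scores (scanpy 1.11.5) were removed as presumed doublets at 0.8% per 1000 cells. Scrublet's own threshold marked 0.0% of Ctrl and 7.81% of cKO cells and was not used. Cells were clustered in Seurat 5.3.0 (R 4.3.3) on 2000 variable genes, without cell cycle genes and genes that differed between the libraries, in 30 dimensions at resolution 1 after reciprocal PCA integration. A cluster was named when at least 3 markers and 40% of a list were found in at least 10% of its cells with a log2 fold of at least 0.5, thresholds set after the data were seen. Python 3.11.15 with numpy 2.4.6, pandas 2.3.3, scipy 1.17.1 and matplotlib 3.10.9 did the rest.

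UMIs were summed per library and population. Levels carry exact Poisson intervals, ratios the exact conditional interval and shares the Clopper-Pearson interval, all at 95%. The ratio and its interval were tried on simulated independent counts, which is what the interval assumes. This checks the computation and not whether the intervals suit these data. With 1 library per genotype no p-value was computed, and "higher" and "lower" give sizes only. A gene was measured at a mean of at least 10 CPM and at least 30 UMIs. Members were named by rule: the 3 highest and 3 lowest levels per phase, the 3 largest ratios in each direction over all cells and in each of 6 populations, and a fixed set of 20 well-known genes, with the 3 largest ratios in each direction in the lists of regulators. Members named for their place in CM-like cells, by role or for covariation were chosen after their values were seen. The members, marker lists, roles and pathway lists were all chosen with earlier results of these data known. Gene positions and promoters came from RefSeq (GRCm38.p6).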

Additional observations from a re-analysis of the deposited data

How the results depend on the processing

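The limits of these values are those of 2 libraries: no spread between embryos is known, counting intervals are too narrow, and population names were rebuilt from markers. No paired analysis was possible because the labels carry no replicate numbers and each genotype has 1 library. Over all kept cells and the 6 populations, 74 values under alternatives were computed for each ratio of cKO over Ctrl. The S ratio ranged from -0.10 to 0.20 (10 changes of sign), the G2/M ratio from -0.34 to 0.23 (9), and the G2/M minus S difference from -0.45 to 0.18 (10). Only endothelium-like cells with Xist and no Y-linked UMIs passed log2 0.32, in the G2/M ratio and in the difference. All ratios are on the log2 scale.

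Over all kept cells the S ratio (-0.07) was -0.08 without cell filters, -0.08 with presumed doublets, -0.03 with totals without mitochondrial, ribosomal protein and haemoglobin genes, 0.11 under median-of-ratios scaling, -0.10 as the members' median, -0.09 in Xist cells and -0.03 in Y cells. The G2/M ratio (-0.07) was -0.03 with those totals, 0.11 under the scaling, -0.05 as a mean over cells, -0.04 as a median, -0.05 in Xist cells and -0.07 in Y cells. Their difference (0.00) was 0.02 without filters, 0.01 with doublets, 0.02 as a mean over cells, 0.06 as a median, 0.04 in Xist cells and -0.04 in Y cells. In SoM/aSHF-like cells the G2/M ratio (0.12) was 0.06 with doublets, -0.05 with cell cycle genes in clustering, 0.04 in the first pass, 0.03 without integration, 0.07 at resolution 0.6, 0.23 under the scaling and 0.18 in Y cells. In endothelium-like cells (-0.22) it was -0.17 with doublets, -0.10 under the scaling, -0.18 as a mean over cells, -0.34 in Xist cells and -0.17 in Y cells. The cause of these shifts was not tested.

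At 1.5-fold 0 members were higher and 0 lower. Under the scaling 10 were higher (19.5% of measured genes) and 1 lower (13.5%), and after centring by gene span, an alternative chosen after seeing the data, 5 were lower. The scaled values of the upstream genes and the ratios within clusters were also chosen after seeing the data. The share of Ctrl cells with at least 5 G2/M UMIs (91.4%) was 97.1% without thinning, 83.9% at 3000 UMIs, 95.4% for at least 3 UMIs and 80% for at least 10. In cKO (91.6%) it was 96.5%, 83.3%, 95.5% and 79.4%, and 92.2% with doublets. For S UMIs the same 4 settings gave 99.2%, 82.8%, 98.3% and 75.4% in Ctrl and 98.9%, 80.3%, 98% and 73.4% in cKO.

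The S ratio of CM-like over other cells was -0.92 in Ctrl and -0.71 in cKO with doublets kept, and -1.12 and -1.10 with the reduced totals. The G2/M ratio was -0.44 and -0.35 with doublets, -0.62 and -0.57 with cell cycle genes in clustering, -0.58 and -0.53 without integration, and -0.62 and -0.62 with the reduced totals. Of 250 values of a population over the other cells under alternatives, 17 had the other sign, among them erythroid-like cells with the reduced totals (0.07 for S and 0.20 for G2/M), whose totals then leave out the haemoglobin genes.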
